A study of Camelina sativa with 12 samples.

Results

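Sub-genome III of Camelina sativa comprises the genes carried by chromosomes 2, 5, 9, 12, 15, 17 and 20. Its members were taken here by the chromosome number in the gene ID (for example Csa05g079910 lies on chromosome 5). Of 49932 genes in the expression matrix, 49297 had an ID on 1 of the 20 chromosomes and 17044 of these (34.6%) belonged to sub-genome III. The other 32253 placed genes comprised 16283 on sub-genome I and 15970 on sub-genome II. The 635 genes placed on scaffolds only entered no share. The rule used no measured value.

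Camelina is an allohexaploid oilseed of the Brassicaceae that carries 3 closely related sub-genomes, so most genes of its relative Arabidopsis thaliana have up to 3 camelina counterparts, called homeologues, with 1 on each sub-genome. When related genomes are brought together in a polyploid, the copies of a gene are often transcribed unequally, and a sub-genome whose copies are on the whole the more highly expressed is called dominant. The share of transcripts that a sub-genome supplies, its level per gene and the share of its genes that are silent are the usual measures of such a balance.

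RNA was sequenced from shoots and roots of 28-day-old plants of the line DH55 in 4 groups. Each group had 3 biological replicates, which gave 12 libraries. Salt shoots and salt roots came from plants watered, by the study's account of the RNA samples, for 21 days with a 192 mM NaCl solution (electrical conductivity 15 dS/m). Elsewhere the study gives a later start of the salt, which leaves fewer days at that age, so the length of treatment is uncertain. Control shoots and control roots came from plants of the same age that received tap water. The sources do not say whether a replicate was a single plant or a pool. The values were read counts scaled to library size (CPM) that the authors normalized further and rounded to whole numbers. The read depth behind them was unknown, so no counting interval can be given. The listed values of a library summed to 1077479 to 1117956 in the 6 shoot libraries and 882288 to 938888 in the 6 root libraries.

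The organ labels were checked on the gene for Rubisco small chain 1A, the small subunit of the carbon-fixing enzyme, whose sub-genome III copy (Csa05g079910) was far more abundant in shoots than in roots. It was at 3047, 3114 and 3798 CPM in salt shoots and 6032, 5334 and 5464 CPM in control shoots, against 113, 41 and 68 CPM in salt roots and 7, 16 and 9 CPM in control roots. The genes planned as root markers, for an iron and a nitrate transporter, are absent from the matrix. A stretch of 286 consecutively numbered genes on chromosome 4 (Csa04g058100 to Csa04g065890), which belongs to sub-genome I, stood apart between libraries of the same group. Its mean level was 26.6, 0.776 and 12.4 CPM per gene in salt shoots, 0.972, 1.02 and 12.5 CPM in control shoots. In roots it was 20.4, 2.41 and 12.3 CPM under salt and 2.96, 2.77 and 15.8 CPM in control plants. The rest of chromosome 4 held between 16.0 and 23.0 CPM. The stretch was low in the libraries numbered 2 under salt and 1 and 2 in control plants, in shoots and roots alike. The sources do not say whether a number marks the same plants in both organs. No such stretch was found on sub-genome III. Among its 735 windows of 40 genes, none deviated from the group by over 0.3 on the log2 scale, against 12 of 695 windows on sub-genome I and none of 688 on sub-genome II. Because the stretch is low in 6 of the 12 libraries, the shares of CPM, the mean levels and the genes at 0 per library are also given without it. The other measures are given with it.

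Sub-genome III supplied a larger part of the transcripts than of the genes, and more so in shoots than in roots. Its share of the CPM of all placed genes was 37.58, 38.08 and 37.40% in salt shoots and 37.42, 37.61 and 37.55% in control shoots, against 36.39, 36.67 and 36.64% in salt roots and 36.82, 36.71 and 36.58% in control roots. Each of the 12 libraries thus lay above the 34.6% that its number of listed genes alone would give, and each shoot library lay above each root library. Of the placed protein-coding genes in the RefSeq annotation, 35.5% lay on sub-genome III, 32.9% on sub-genome I and 31.6% on sub-genome II. Each library lay above that 35.5% too, by a smaller margin. The shares of CPM on sub-genome III averaged 37.68 ± 0.355% in salt shoots, 37.53 ± 0.0986% in control shoots, 36.57 ± 0.153% in salt roots and 36.70 ± 0.118% in control roots (SD, n = 3 each). The shoot value exceeded the root value by 1.116 percentage points under salt and by 0.825 percentage points in control plants, and the groups did not overlap. With the chromosome 4 stretch left out of the total, these differences were 1.114 and 0.787 percentage points, again without overlap. Salt made no difference larger than the spread between replicates. Salt minus control was 0.158 percentage points in shoots and -0.133 in roots, with overlapping groups in both organs. The shoot difference was -0.0399 without the second salt shoot library. No test was run on these shares, since 3 against 3 libraries cannot give an exact two-sided p below 0.1.

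**Figure D1:**
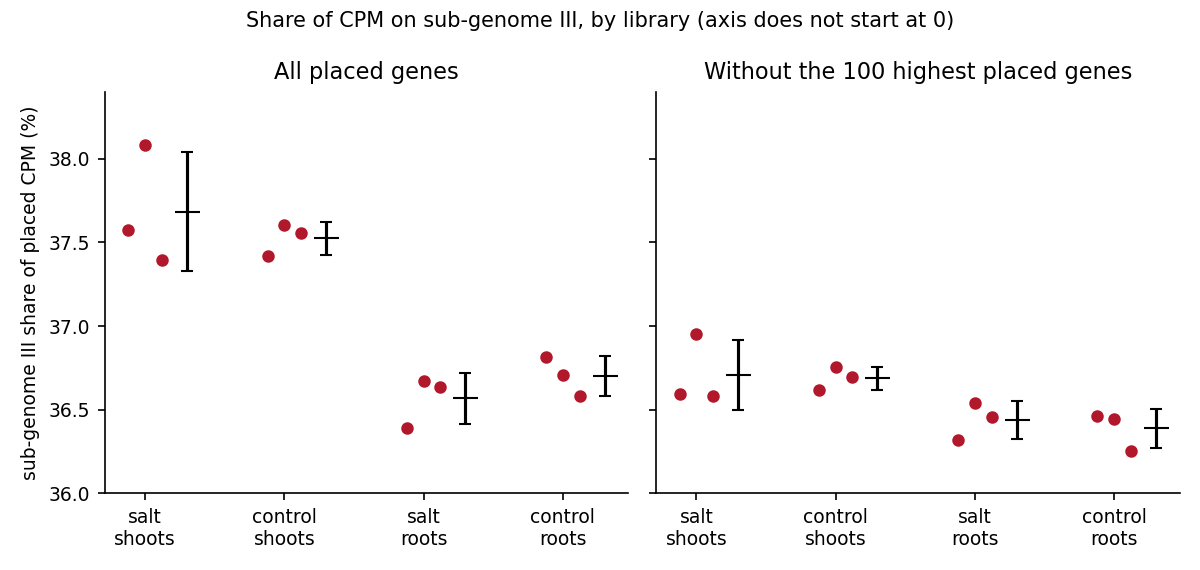
Share of the CPM of all placed genes that lay on sub-genome III (percent, y axis) in each of the 12 libraries (points), with the mean and SD of each group (bars); the left panel uses all placed genes and the right panel leaves out the 100 genes with the highest mean CPM. The 6 shoot libraries lie above the 6 root libraries on the left, and the gap narrows on the right.

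The organ difference in the share became smaller when the most abundant transcripts were left out. Of the 100 placed genes with the highest mean CPM over all libraries, 42 lay on sub-genome III, 32 on sub-genome II and 26 on sub-genome I. With those 100 genes left out, the share was 36.7% in salt shoots, 36.7% in control shoots, 36.4% in salt roots and 36.4% in control roots. The shoot minus root difference was then 0.271 percentage points under salt and 0.301 in control plants, still without overlap. Sub-genome II moved the other way with all genes included. The shoot minus root difference of its share was -1.004 percentage points under salt and -0.688 in control plants, both without overlap. Without the 100 highest genes these differences were 0.133 and -0.109, and the organs overlapped. The shares of sub-genome I overlapped between the organs. Without the chromosome 4 stretch they still overlapped under salt (-0.101), whereas the control groups did not, at 30.909% in shoots against 30.972% in roots.

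Per listed gene, sub-genome III was the most highly expressed of the 3 sub-genomes in every library. Its genes averaged 24.0 CPM in salt shoots and 24.0 CPM in control shoots, against 21.0 and 21.1 CPM for all other placed genes in the same groups. In roots they averaged 19.5 CPM under salt and 19.004 CPM in control plants, against 17.9 and 17.3 CPM for the others. The ratio of sub-genome III to the others was 1.14 ± 0.0174 in salt shoots, 1.14 ± 0.00478 in control shoots, 1.09 ± 0.00718 in salt roots and 1.10 ± 0.00559 in control roots (SD, n = 3 each). Without the chromosome 4 stretch it was 1.14, 1.13, 1.09 and 1.09. Against sub-genome II alone, which holds no such stretch, the ratio was 1.14 in salt shoots, 1.117 in control shoots, 1.07 in salt roots and 1.07 in control roots. These ratios hold for listed genes only. Sub-genome III held 34.6% of the listed placed genes but 35.5% of those in the RefSeq annotation, and sub-genome II 32.4% but 31.6%. Per annotated gene the ratio to sub-genome II would thus be smaller. Expression levels were compared per gene and not per length of transcript, because no transcript lengths were paired with these IDs. As a rough guide to length, protein-coding genes of the RefSeq annotation spanned a median of 2033 bp on sub-genome III, 2069.5 bp on sub-genome I and 2078 bp on sub-genome II.

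The typical gene differed much less than the mean. The median sub-genome III gene stood at 9 CPM in every shoot library and 8 CPM in every root library. The other placed genes had a median of 9 CPM in salt shoots and 8 CPM in control shoots, salt roots and control roots. The mean of log2(CPM + 0.5) over genes, to which a few abundant transcripts contribute little, was higher on sub-genome III than on the other placed genes in all 12 libraries. The difference was 0.0615 to 0.0963 in salt shoots, 0.0667 to 0.0936 in control shoots, 0.0498 to 0.0757 in salt roots and 0.0642 to 0.0899 in control roots. Most of the scatter between libraries went with the chromosome 4 stretch. Without it the difference was 0.0643 ± 0.00114 in salt shoots, 0.0594 ± 0.00575 in control shoots, 0.0516 ± 0.00185 in salt roots and 0.0581 ± 0.00189 in control roots (SD, n = 3 each). Sub-genome III also stood above sub-genome II in every library, by 0.0485 in salt shoots, 0.0431 in control shoots, 0.0276 in salt roots and 0.0328 in control roots on average. The advantage over sub-genome II was larger in shoots than in roots, without overlap.

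**Figure D2:**
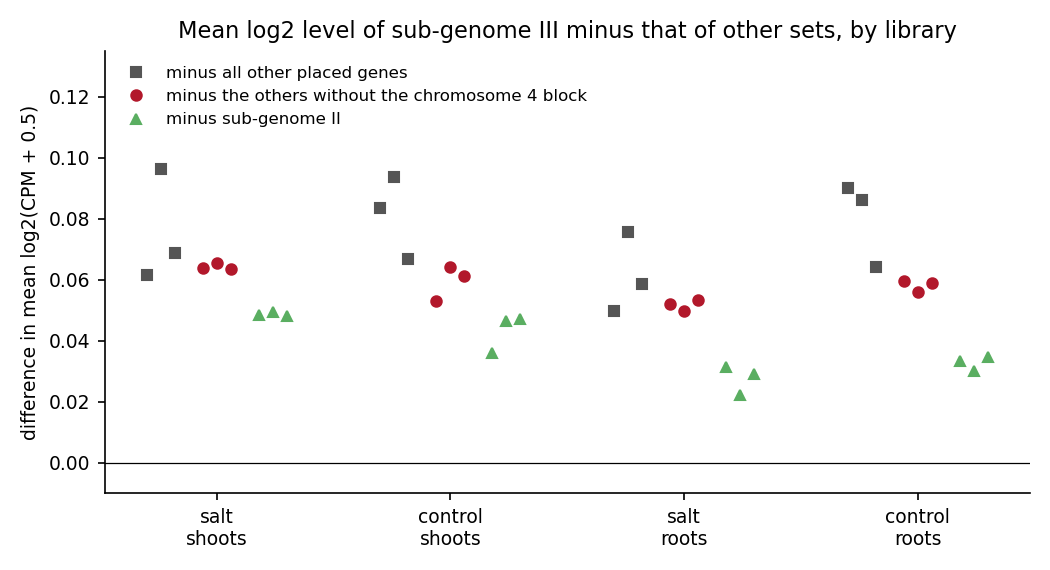
Mean log2(CPM + 0.5) over the genes of sub-genome III minus that of 3 other sets of genes (y axis), for each library (points) in the 4 groups (x axis); squares show all other placed genes, circles the same without the chromosome 4 stretch, and triangles sub-genome II. Every point lies above 0, and the circles of a group lie closer together than its squares.

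The difference between mean and median lay in the well expressed genes. Genes with a group mean of 100 to under 1000 CPM made up 3.34% of sub-genome III in salt shoots, 3.14% in control shoots, 2.39% in salt roots and 2.29% in control roots, against 2.74, 2.74, 1.85 and 1.93% of the other placed genes. At 1000 CPM or more there were 17 sub-genome III genes against 17 others in salt shoots, 20 against 24 in control shoots, 10 against 15 in salt roots and 9 against 14 in control roots, although the others number 32253 genes. These few genes supplied 9.28% of the sub-genome III transcripts in salt shoots, 10.6% in control shoots, 4.79% in salt roots and 4.54% in control roots, against 5.34, 7.21, 4.23 and 3.83% for the others.

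In mean CPM, the higher level was spread over most of the 7 chromosomes. In control roots the 7 chromosomes of sub-genome III averaged between 18.2 CPM per gene (chromosome 20) and 19.9 CPM (chromosome 17), and in salt roots between 18.1 CPM (chromosome 20) and 20.9 CPM (chromosome 5). The highest chromosome of the other sub-genomes was chromosome 1, at 19.2 CPM in salt roots and 18.3 CPM in control roots, and 5 of the 7 sub-genome III chromosomes stood above it in each group. In salt roots the margin of chromosomes 2, 12 and 17 was smaller than the SD between libraries, at 19.256, 19.288 and 19.247 CPM against 19.195 CPM for chromosome 1. Shoots spread more widely. Chromosomes 2, 5 and 17 held 27.1, 27.0 and 24.9 CPM per gene in salt shoots and 24.996, 27.8 and 25.5 CPM in control shoots. Chromosome 20 held 22.4 CPM in salt shoots and 21.2 CPM in control shoots, and chromosome 15 held 22.1 and 22.0 CPM. Only 3 of the 7 stood above every other chromosome in salt shoots and 1 in control shoots, where chromosome 16 of sub-genome II, which carries the most abundant Rubisco small chain 1A copy, reached 25.7 CPM. Counted by rank, 5 of the 7 highest chromosomes were of sub-genome III in salt shoots, control shoots and salt roots, and 6 of 7 in control roots.

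**Figure D3:**
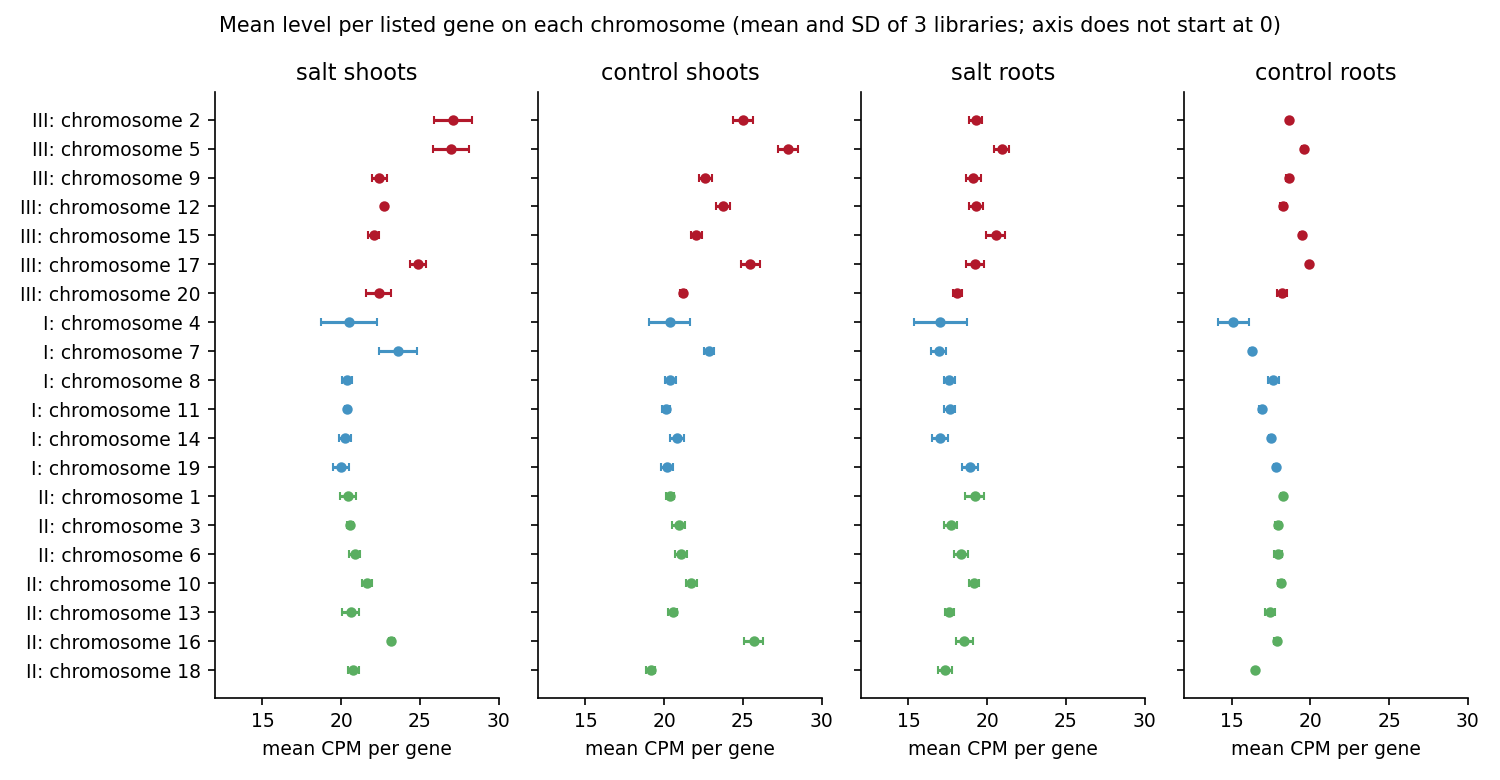
Mean CPM per listed gene (x axis) on each of the 20 chromosomes (rows, grouped and coloured by sub-genome) in the 4 groups (panels); points are means and bars SDs of 3 libraries. In both root panels 5 of the 7 sub-genome III chromosomes lie to the right of every chromosome of the other sub-genomes and chromosome 20 lies lower (18.1 CPM in salt roots and 18.2 CPM in control roots), whereas in control shoots chromosome 16 of sub-genome II lies among them at 25.7 CPM.

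The most abundant sub-genome III transcripts differed in how they divided between the organs. Csa17g026430, which the study does not name, was the highest sub-genome III gene in control plants of both organs, with 6875, 6153 and 5469 CPM in salt shoots and 7265, 6354 and 7384 CPM in control shoots. It had 3898, 2187 and 2539 CPM in salt roots and 2380, 3045 and 2102 CPM in control roots. It was thus higher in shoots in every library (log2 change 1.49 ± 0.260 SE, adjusted p = 0.000360 by limma, in control plants). After quantile normalization this call was lost (log2 change 0.21) and the shoot minus root change under salt, 1.14 as deposited, turned to -0.014. Csa02g073820 was a shoot transcript of 7139, 7807 and 4623 CPM in salt shoots and 3268, 5385 and 5079 CPM in control shoots, against 35, 67 and 12 CPM in salt roots and 7, 9 and 5 CPM in control roots. Csa02g020340 was its mirror image, at 5, 5 and 3 CPM in salt shoots and 8, 5 and 10 CPM in control shoots, against 2077, 2461 and 2025 CPM in salt roots and 1930, 2288 and 1853 CPM in control roots. Csa15g034700, among the 5 highest in control roots, was down-regulated by salt in both organs. It held 120, 162 and 169 CPM in salt shoots against 430, 393 and 448 CPM in control shoots (log2 change -1.51 ± 0.269 SE, adjusted p = 0.000702). In roots it held 101, 110 and 231 CPM in salt roots against 1256, 965 and 1326 CPM in control roots (log2 change -3.09 ± 0.269 SE, adjusted p = 6.85e-06).

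Besides the Rubisco small chain 1A copy on chromosome 5, a pair of consecutively numbered Rubisco small subunit genes on chromosome 12 was among the strongest shoot transcripts. Csa12g084210 stood at 609, 720 and 591 CPM in salt shoots and 3025, 2785 and 2950 CPM in control shoots, against 1 CPM in each salt root library and 1, 1 and 0 CPM in control roots. Csa12g084200 stood at 234, 486 and 276 CPM in salt shoots and 1529, 1392 and 1426 CPM in control shoots, against 1 CPM in each salt root library, and it was listed at 0 in all 3 control root libraries. Both fell in salt shoots, by 2.19 (SE 0.325, adjusted p = 0.000190) and by 2.20 (SE 0.200, adjusted p = 6.26e-06) on the log2 scale in limma. The chromosome 5 copy did not pass the test in shoots (log2 change -0.76, adjusted p = 0.0772), although its salt and control libraries did not overlap. Small subunit genes are near-identical copies. The sources do not say how reads matching several of them were assigned, so the split between copies is uncertain.

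Sub-genome III had about as many silent genes as the rest of the genome, and fewer in salt-treated than in control plants. The share of its genes listed at 0 was 4.43, 4.58 and 4.14% in salt shoots against 5.76, 5.34 and 5.56% in control shoots, and 4.79, 4.74 and 4.77% in salt roots against 5.50, 5.39 and 5.50% in control roots. Salt and control libraries did not overlap in either organ, with differences of -1.17 percentage points in shoots and -0.692 in roots. This was not particular to sub-genome III: the same difference was -1.07 percentage points in shoots and -0.634 in roots for the other placed genes without the chromosome 4 stretch, and -1.07 and -0.528 for sub-genome II. In roots it also rested on the boundary between 0 and 1 CPM. Counting genes at 0 or 1 CPM, sub-genome III held 9.60, 9.18 and 8.69% in salt shoots against 10.2, 10.2 and 10.3% in control shoots, still without overlap. It held 10.9, 9.87 and 10.2% in salt roots against 10.5, 10.2 and 10.5% in control roots, which overlapped.

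**Figure D4:**
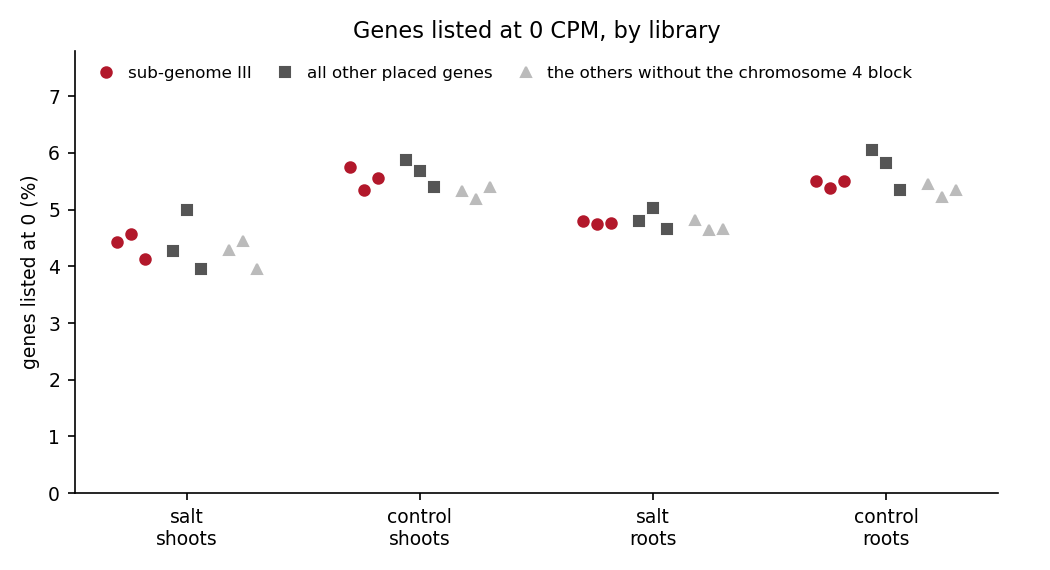
Percent of genes listed at 0 CPM (y axis) in each library (points) of the 4 groups (x axis), for sub-genome III (circles), all other placed genes (squares) and the others without the chromosome 4 stretch (triangles). Salt libraries lie below control libraries of the same organ for sub-genome III, and the triangles lie close to the circles.

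Genes at 0 in all 3 libraries of a group were slightly more frequent on sub-genome III than on the other placed genes pooled. They numbered 582 (3.41%) in salt shoots, 770 (4.52%) in control shoots, 650 (3.81%) in salt roots and 787 (4.62%) in control roots, against 3.26, 4.31, 3.69 and 4.49% of the other placed genes. Sub-genome II had the lowest such share in each group, from 3.13% in salt shoots to 4.20% in control shoots. Sub-genome I lay just below sub-genome III in shoots, at 3.39% under salt and 4.42% in control plants, and above it in roots, at 3.85% under salt and 4.80% in control plants. No listed gene was at 0 in all 12 libraries, so genes without reads anywhere are absent from the matrix and these shares hold for listed genes only. The matrix also lacks some genes that the study reports as responding to salt, such as the iron transporter IRT1 (Csa12g041800). At the other end, 14647 sub-genome III genes (85.9%) had at least 1 CPM in all 12 libraries, against 85.7% of the other placed genes.

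A small group of sub-genome III genes was listed at 0 in all 3 control shoot libraries and at 5 CPM or more in all 3 salt shoot libraries. There were 46 such genes (0.270%), against 0.200% of all listed genes and 0.167% of the other placed genes (54 genes). In roots the same pattern was found for 16 sub-genome III genes (0.0939%), against 0.102% of all listed genes. The opposite pattern, 0 in salt and 5 CPM or more in control libraries, was rarer, with 4 sub-genome III genes in shoots (against 0.0280% of all listed genes) and 9 in roots (against 0.0521%). No test was made of these counts.

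Some of the 46 genes have a name in the gene lists of the study. Csa17g010800 encodes HAI1, a protein phosphatase 2C that restrains abscisic acid (ABA) signalling in Arabidopsis, and was at 39, 22 and 31 CPM in salt shoots and 0 in all 3 control shoot libraries. ACC synthase 2 (Csa17g001950), which makes the precursor of ethylene, was at 11, 5 and 17 CPM in salt shoots, and SAG29 (Csa20g018520), a senescence-associated sugar transporter in Arabidopsis, at 33, 10 and 41 CPM, both against 0 in all 3 control shoot libraries. The others with a name were a purple acid phosphatase (Csa09g060010, at 16, 10 and 11 CPM in salt shoots), a mitochondrial small heat shock protein (Csa12g028030, at 5, 6 and 7 CPM), an HSP20-like chaperone (Csa09g041350, at 11, 6 and 5 CPM) and a 2-oxoglutarate-dependent oxygenase (Csa09g052280, at 25, 6 and 11 CPM). The second salt shoot library was the lowest of the 3 for HAI1, ACC synthase 2, SAG29, the phosphatase and the oxygenase. In roots, the 1 named gene with this pattern was the sub-genome III member of a MYB transcription factor trio (Csa12g063080), at 62, 24 and 24 CPM in salt roots and 0 in all 3 control root libraries. A member of cytochrome P450 family 78 (Csa17g001660) showed the opposite pattern in shoots, with 0 in all 3 salt shoot libraries against 8, 10 and 11 CPM in control shoots.

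Between organs, 155 sub-genome III genes (0.909%) were at 0 in all 6 root libraries and at 10 CPM or more in all 6 shoot libraries, against 0.911% of all listed genes, and 69 (0.405%) were at 0 in all shoot libraries and at 10 CPM or more in all root libraries, against 0.350%. The first set included 3-ketoacyl-CoA synthase 6 (Csa05g084930), an enzyme of cuticular wax synthesis, at 146, 169 and 138 CPM in salt shoots and 29, 25 and 33 CPM in control shoots. Acyl carrier protein 4 (Csa12g028170), a plastid carrier of fatty acid synthesis, had 38, 30 and 40 CPM in salt shoots and 126, 133 and 142 CPM in control shoots. A lipid-transfer protein (Csa09g097130) had 244, 601 and 175 CPM in salt shoots against 20, 25 and 43 CPM in control shoots and rose with salt (log2 change 3.38 ± 0.380 SE, adjusted p = 2.69e-05).

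Gene by gene, sub-genome III responded to salt and differed between organs about as often as the genome as a whole. Calls were made with limma on log2(CPM + 0.5) over 49928 genes with at least 1 CPM in 3 libraries, of which 17042 lay on sub-genome III, at an adjusted p of at most 0.05 (Benjamini-Hochberg) and a log2 change above 1 in size. In salt shoots 1913 of its genes were up-regulated (11.2%, against 10.8% of all genes tested) and 1504 down-regulated (8.83%, against 8.87%). In salt roots 1432 were up-regulated (8.40%, against 8.22%) and 1402 down-regulated (8.23%, against 7.85%). Shoots exceeded roots for 3166 genes under salt (18.6%, against 18.2%) and for 2943 in control plants (17.3%, against 17.0%). They were below roots for 2540 under salt (14.9%, against 14.7%) and for 2710 in control plants (15.9%, against 15.3%). The median log2 change with salt was 0 in both organs, for sub-genome III as for all genes tested.

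Genes that responded in both organs mostly did so in the same direction. On sub-genome III, 753 genes were up-regulated by salt in shoots and in roots, which is 39.4% of those up-regulated in shoots and 52.6% of those up-regulated in roots, and 680 were down-regulated in both organs (45.2% of the shoot and 48.5% of the root genes). Over all genes tested these shares were 39.5 and 51.9% for genes up-regulated in both organs and 43.7 and 49.4% for genes down-regulated in both. On sub-genome III 25 genes were up in shoots and down in roots, and 39 the reverse, against 78 and 94 of all 49928 genes tested. A difference between the organs in the salt response itself, tested as an interaction, was called for 1115 genes in the direction of shoots (6.54%, against 6.25% of all genes tested) and 1062 in the direction of roots (6.23%, against 6.09%).

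Among the sub-genome III genes that the study names for a function, most of those that responded rose. Of 84 named IDs, 68 were tested. The rest were not in the matrix or did not reach 1 CPM in 3 libraries, so their response cannot be seen here. In salt shoots 42 rose and 14 fell, and in salt roots 36 rose and 13 fell, with a median log2 change of 1.73 in shoots and 1.32 in roots, against 0 over all genes tested. Of all genes tested, 10.8% rose and 8.87% fell in salt shoots, and 8.22% rose and 7.85% fell in salt roots. The study chose these genes on the same samples, so their direction is no independent evidence. The hormone genes contributed 16 up and 4 down of 26 in salt shoots (13 up and 6 down in salt roots), the ion and metal genes 10 up and 3 down of 16 (11 up and 3 down in roots), and the carbohydrate genes 6 up and 1 down of 7 (4 up and none down in roots). All 4 respiration genes rose in shoots and 3 rose in roots, whereas among 4 genes of nitrogen and lipid metabolism 1 rose and 3 fell in shoots and 1 fell in roots.

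A pair of ABA synthesis genes, NCED3 and ABA deficient 1, and the ABA signalling gene HAI1 rose in both organs on sub-genome III. NCED3 (Csa15g018820), the enzyme that commits carotenoids to ABA synthesis, had 72, 21 and 43 CPM in salt shoots against 1 CPM in each control shoot library (log2 change 4.76 ± 0.371 SE, adjusted p = 2.17e-06). In roots it had 9, 6 and 4 CPM in salt roots against 0 in all 3 control root libraries. ABA deficient 1 (Csa02g075650), the zeaxanthin epoxidase upstream of it, had 329, 342 and 301 CPM in salt shoots against 116, 115 and 155 CPM in control shoots (log2 change 1.34 ± 0.146 SE, adjusted p = 2.10e-05). In roots it had 40, 29 and 30 CPM in salt roots against 8, 10 and 9 CPM in control roots (log2 change 1.81 ± 0.146 SE, adjusted p = 4.13e-06). HAI1 was at 55, 28 and 25 CPM in salt roots against 1 CPM in each control root library (log2 change 4.51 ± 0.269 SE, adjusted p = 7.48e-07). The ethylene response factor ERF106 (Csa20g010010) fell in both organs, to 1, 2 and 2 CPM in salt shoots against 19, 18 and 18 CPM in control shoots and to 6, 6 and 8 CPM in salt roots against 34, 35 and 36 CPM in control roots.

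Sub-genome III copies of alternative oxidases, mitochondrial enzymes that pass electrons to oxygen without pumping protons, and of ferritins, which store iron, differed in where they rose. Alternative oxidase 1D (Csa17g051700) was at 52, 17 and 71 CPM in salt shoots against 0, 1 and 0 CPM in control shoots (log2 change 5.81 ± 0.521 SE, adjusted p = 5.68e-06). In roots it was at 2, 1 and 1 CPM in salt roots against 0 in all 3 control root libraries. Alternative oxidase 1A (Csa15g036960) had 96, 47 and 115 CPM in salt shoots against 12, 12 and 15 CPM in control shoots, and 48, 19 and 37 CPM in salt roots against 1, 1 and 2 CPM in control roots. Ferritin 1 (Csa20g001420), the plastid iron store, had 204, 56 and 193 CPM in salt shoots against 12, 16 and 22 CPM in control shoots (log2 change 2.97 ± 0.447 SE, adjusted p = 0.000212). In roots it had 332, 165 and 177 CPM in salt roots against 43, 56 and 39 CPM in control roots (log2 change 2.22 ± 0.447 SE, adjusted p = 0.00191). The second salt shoot library was the lowest of its group for alternative oxidases 1D and 1A and ferritin 1, without overlapping the controls. Alternative oxidase 1B (Csa15g035960) rose in shoots only among the calls, with 4, 2 and 12 CPM in salt shoots, and was at 0 in all 3 control shoot libraries and in every root library. Ferritin 2 (Csa15g014720) rose in roots, with 4, 4 and 2 CPM in salt roots, and was at 0 in all 3 control root libraries and in every shoot library.

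The membrane transporters named here differed from each other in their response. BOR5 (Csa09g079390), of the boron transporter family, fell to 1, 0 and 1 CPM in salt shoots against 3 CPM in each control shoot library and rose to 9, 12 and 10 CPM in salt roots against 1, 2 and 2 CPM in control roots. A gene of the nodulin MtN3 family (Csa12g029240), to which the SWEET sugar transporters belong, was at 0 in all 3 salt shoot libraries and 1 CPM in each control shoot library, but at 27, 35 and 23 CPM in salt roots against 1, 1 and 0 CPM in control roots. A nitrate transporter of the NRT1 family (Csa17g016300) fell in both, to 3, 2 and 2 CPM in salt shoots against 12, 9 and 10 CPM in control shoots and to 1, 2 and 1 CPM in salt roots against 21, 25 and 34 CPM in control roots. Chloride channel B (Csa09g012970) fell in roots alone among the calls, with 2, 3 and 4 CPM in salt roots against 39, 25 and 37 CPM in control roots (log2 change -3.30 ± 0.304 SE, adjusted p = 9.89e-06). The shoot values of 16, 7 and 16 CPM in salt plants and 11, 12 and 11 CPM in control plants overlapped. SULTR3;4 (Csa15g020720), of the sulphate transporter family, rose in both, to 11, 10 and 9 CPM in salt shoots against 4, 4 and 3 CPM in control shoots and to 80, 49 and 46 CPM in salt roots against 13, 12 and 9 CPM in control roots.

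Other sub-genome III genes with called changes in shoots were at low levels, or changed less, in roots. A cytochrome P450 gene (Csa15g029230) had 289, 96 and 282 CPM in salt shoots against 2 CPM in each control shoot library (log2 change 6.32 ± 0.455 SE, adjusted p = 1.34e-06) and no more than 1 CPM in any root library. UDP-glycosyltransferase 74 F1 (Csa05g006470), which glucosylates salicylic acid in Arabidopsis, had 79, 21 and 66 CPM in salt shoots against 2, 3 and 2 CPM in control shoots, and 2, 2 and 3 CPM in salt roots against 5, 6 and 8 CPM in control roots. It thus rose in shoots and fell in roots (log2 change -1.27 ± 0.402 SE, adjusted p = 0.0234), although the root call was lost without moderation or without 1 of 4 root libraries (the first or second salt root or the second or the third control root library), at an adjusted p of 0.0536 to 0.0878 in limma. A glutathione S-transferase (TAU 8, Csa15g010630) and the superoxide-producing NADPH oxidase D (Csa02g042790) were root transcripts that reached 2, 1 and 3 CPM and 1, 1 and 1 CPM in salt shoots, and both were at 0 in all 3 control shoot libraries. Both shoot changes are thus steps of a few whole CPM from 0, near the limit of the rounding. A protein kinase-related gene (Csa05g079690) fell to 1 CPM in each salt shoot library against 23, 24 and 27 CPM in control shoots (log2 change -4.07 ± 0.139 SE, adjusted p = 4.27e-08) and was at 0 in all root libraries. Glycerol-3-phosphate acyltransferase 1 (Csa17g009910), an enzyme of glycerolipid synthesis, fell to 1, 2 and 2 CPM in salt shoots against 21, 19 and 28 CPM in control shoots (log2 change -3.44 ± 0.206 SE, adjusted p = 3.95e-07), while salt roots had 2 CPM and control roots 1 CPM in each library. Nitrile specifier protein 1 (Csa15g021300), which directs glucosinolate breakdown, was listed at 0 in all 3 salt shoot libraries against 4, 3 and 6 CPM in control shoots, and at 109, 92 and 106 CPM in salt roots against 68, 74 and 107 CPM in control roots.

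The balance was also followed within sets of 3 homeologues. The study names 35 such trios with 1 ID on each sub-genome, 31 of which had all 3 members in the matrix, and with equal expression each member would carry 33.3% of its trio's CPM. Over the 24 trios with a value in all 12 libraries, the sub-genome III member carried 37.3 ± 0.706% of the CPM in salt shoots, 35.6 ± 0.951% in control shoots, 37.6 ± 1.08% in salt roots and 35.2 ± 1.22% in control roots (SD over 3 libraries). Salt and control libraries did not overlap in either organ, but in shoots the gap was narrow, at 36.634 to 38.028% in salt libraries against 34.690 to 36.588% in control libraries. The sub-genome I copy of citrate synthase 3 (Csa04g059380) lies in the chromosome 4 stretch. Without that trio the shares were 37.2 ± 0.768% in salt shoots against 35.8 ± 0.818% in control shoots, which overlapped, and 37.7 ± 1.28% in salt roots against 35.6 ± 1.12% in control roots, which did not. Over the 11 trios with at least 10 CPM in total in every library, the shares were 37.5 ± 0.437% in salt shoots against 36.1 ± 0.349% in control shoots, without overlap, and 37.1 ± 1.39% in salt roots against 35.9 ± 1.19% in control roots, which overlapped. Without citrate synthase 3 these trios overlapped in both organs, with salt minus control at 0.739 percentage points in shoots and 0.487 in roots. The median over the 24 trios lay lower, at 35.0% in salt shoots, 31.4% in control shoots, 34.4% in salt roots and 32.6% in control roots. The sub-genome III copy was the highest of the 3 in 11 of 31 trios in salt shoots, 9 in control shoots, 11 in salt roots and 8 in control roots, and the lowest in 6, 5, 8 and 6. In the same order, the sub-genome II copy was the highest in 12, 9, 14 and 12 trios and the sub-genome I copy in 4, 7, 5 and 8. Among these 31 trios the sub-genome III copy was thus in no group the most frequent leader alone, and in control shoots it tied with sub-genome II. The study named these trios on the same samples, so their direction is no independent evidence. The split of reads between near-identical homeologues is uncertain, as for the Rubisco copies.

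The same measure over 49 trios of a wider list of the study that had a value in all 12 libraries gave 37.6 ± 1.13% in salt shoots against 34.8 ± 0.422% in control shoots, again without overlap. In roots it gave 36.2 ± 1.47% in salt plants against 34.6 ± 0.599% in control plants, and there the libraries overlapped. On this list 68 trios had all 3 members in the matrix. The sub-genome III copy led in 31 in salt shoots, 29 in control shoots, 21 in salt roots and 19 in control roots. In the same order, the sub-genome II copy led in 18, 17, 15 and 16 and the sub-genome I copy in 16, 14, 15 and 16. Sub-genome III was thus the most frequent leader in each group on the wider list. Among the 31 trios described before, the 3 homeologues mostly responded alike: all 3 rose in 19 trios in salt shoots and 17 in salt roots, and all 3 fell in 4 in each organ. The sub-genome III member rose in 21 trios and fell in 4 in salt shoots, and rose in 21 and fell in 5 in salt roots. The other members responded about as often. The sub-genome I member rose in 19 and fell in 6 in shoots, and rose in 19 and fell in 5 in roots. The sub-genome II member rose in 19 and fell in 5 in shoots, and rose in 20 and fell in 5 in roots. The sub-genome III member was the only one called in 2 trios in shoots and 1 in roots. The share of the sub-genome III member did not overlap between salt and control libraries in 15 of 27 trios in shoots (9 higher and 6 lower with salt) and in 13 of 26 in roots (9 higher and 4 lower). Over the wider list this held for 36 of 64 trios in shoots (25 higher and 11 lower). In roots it held for 20 of 52, with 11 higher and 9 lower. No test was made of these shifts. The same counts were not made for the sub-genome I and II members or over all genes, so they do not set sub-genome III apart.

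**Figure D5:**
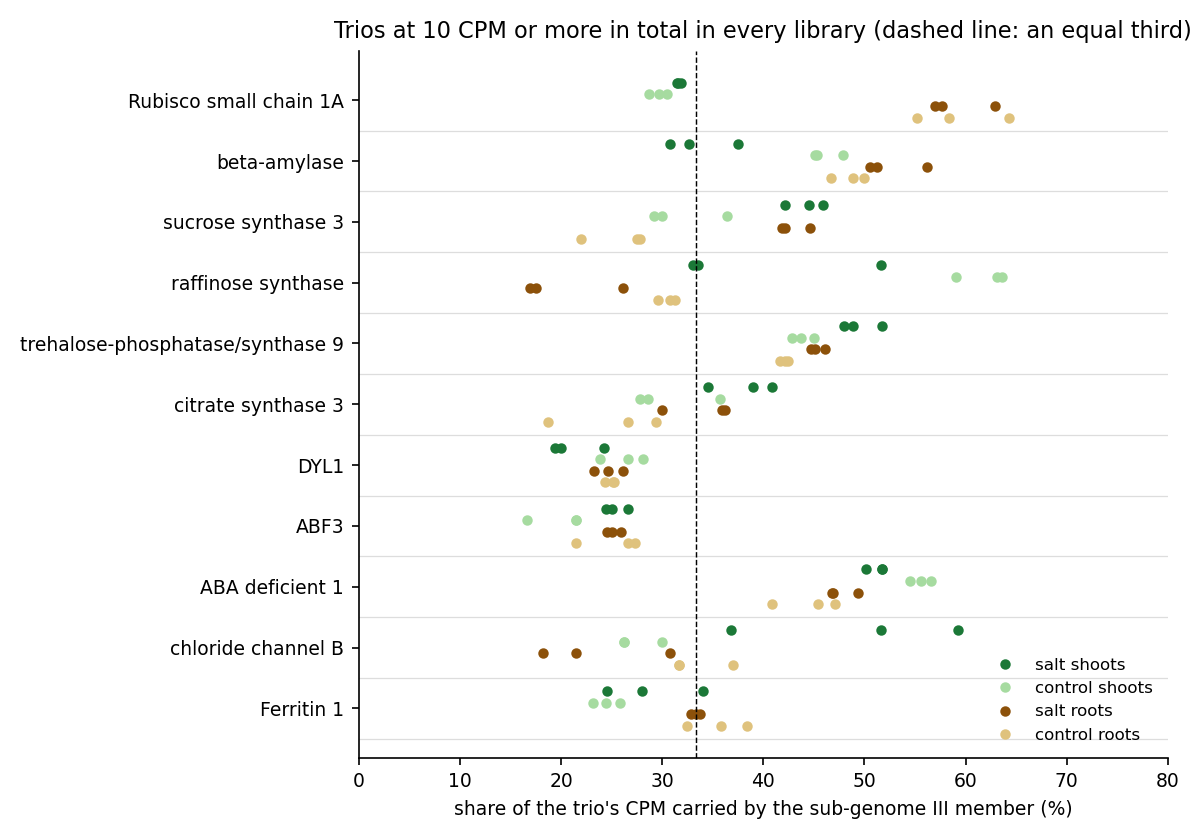
Share of a trio's CPM carried by its sub-genome III member (percent, x axis) in each library (points), coloured by group, for the 11 trios (rows) with a total of at least 10 CPM in every library; the dashed line marks an equal share. Sucrose synthase 3 lies further right in salt than in control libraries of both organs, and Rubisco small chain 1A lies further left in shoots than in roots.

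Sucrose synthase 3, which cleaves sucrose for use in metabolism, shifted towards sub-genome III in both organs. Its sub-genome III copy (Csa02g005510) stood at 117, 90 and 94 CPM in salt shoots against 6, 7 and 8 CPM in control shoots, and at 106, 107 and 104 CPM in salt roots against 11, 15 and 9 CPM in control roots. It carried 44.2 ± 1.89% of the trio in salt shoots against 31.8 ± 3.94% in control shoots, and 42.9 ± 1.49% in salt roots against 25.7 ± 3.29% in control roots (SD, n = 3 each). All 3 copies rose in limma, by 3.75 on the log2 scale in shoots for sub-genome III (SE 0.165, adjusted p = 7.00e-08), 2.75 for sub-genome I (Csa08g052190) and 3.44 for sub-genome II (Csa13g054950).

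In shoots, raffinose synthase and beta-amylase shifted away from sub-genome III with salt, although their sub-genome III copies rose, while trehalose-phosphatase/synthase 9 and alpha-amylase shifted towards it. For raffinose synthase, which makes a sugar that accumulates in stressed plants, the copy Csa12g079610 stood at 52, 47 and 33 CPM in salt shoots against 13, 14 and 12 CPM in control shoots, and its share was 39.4 ± 10.6% in salt shoots against 62.0 ± 2.50% in control shoots. The sub-genome II copy (Csa10g047220) had 71, 31 and 43 CPM in salt shoots against 3, 3 and 2 CPM in control shoots. In roots the sub-genome III copy held 11, 7 and 12 CPM in salt plants against 16, 15 and 13 CPM in control plants and was not called. For beta-amylase, a starch-degrading enzyme, the copy Csa15g048800 stood at 268, 116 and 248 CPM in salt shoots against 23, 23 and 24 CPM in control shoots, with a share of 33.7 ± 3.51% in salt shoots against 46.1 ± 1.58% in control shoots. Its share moved the other way in roots, at 52.7 ± 3.07% in salt plants against 48.5 ± 1.69% in control plants. Alpha-amylase, another enzyme of starch breakdown, fell in shoots in all 3 copies, and least on sub-genome III by fold. That copy (Csa15g030630) had 11, 16 and 13 CPM in salt shoots against 38, 45 and 47 CPM in control shoots, and its share was 68.9 ± 0.589% in salt shoots against 52.4 ± 1.97% in control shoots. The trehalose-phosphatase/synthase 9 copy (Csa17g030990) carried 49.5 ± 1.94% in salt shoots against 43.9 ± 1.08% in control shoots, and 45.3 ± 0.696% in salt roots against 42.1 ± 0.383% in control roots.

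Alternative oxidase 1A and chloride channel B shifted in opposite directions in shoots and roots, and Rubisco small chain 1A differed between organs in its balance. The alternative oxidase 1A copy of sub-genome III carried 33.1 ± 3.94% in salt shoots against 54.1 ± 5.26% in control shoots, and 27.1 ± 0.612% in salt roots against 20.6 ± 4.19% in control roots, where the trio totalled no more than 8 CPM. The chloride channel B copy carried 49.2 ± 11.4% in salt shoots against 27.5 ± 2.20% in control shoots, and 23.5 ± 6.53% in salt roots against 33.5 ± 3.07% in control roots. In shoots the sub-genome II copy (Csa06g007100) fell to 5, 5 and 8 CPM in salt plants against 22, 20 and 21 CPM in control plants, whereas the sub-genome III copy was not called. Rubisco small chain 1A was led by the sub-genome II copy in shoots, where that copy (Csa16g026850) had 6015, 6143 and 7635 CPM in salt plants and 12600, 11583 and 12546 CPM in control plants. The sub-genome III copy carried 31.6 ± 0.203% in salt shoots and 29.6 ± 0.910% in control shoots, against 59.2 ± 3.29% in salt roots and 59.3 ± 4.63% in control roots, and all shoot libraries lay below all root libraries.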

How the data were processed

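RNA was sequenced from 12 stranded libraries (3 per group). The study's methods name kits for both mRNA and total RNA and do not say which library used which. The authors trimmed the reads with Trimmomatic, used STAR for alignment to the camelina reference and counted reads per annotated gene. The authors scaled the counts to library size as CPM and then applied the normalization of DESeq. CPM as deposited are rounded to whole numbers, and are treated here as a score and not as counts. Tool versions, and how reads matching several homeologues were handled, are not given in those sources. All 12 columns were used.

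Sub-genomes were assigned from the chromosome number in the gene ID. Shares, means and percentages of genes at 0 were computed per library in Python 3.11.15 (pandas 2.3.3, numpy 2.4.6). Differences per gene were fitted in limma 3.58.1 (R 4.3.3) on log2(CPM + 0.5), for genes with at least 1 CPM in 3 libraries, with all 4 groups in 1 model, an intensity trend in the variance and 8 residual degrees of freedom. Fold changes are on the log2(CPM + 0.5) scale and understate the change of low genes. Genes were called at an adjusted p of at most 0.05 (Benjamini-Hochberg over all genes tested) and a log2 change above 1 in size. The fit was tested on simulated data. No test of counts was run, because the values are not counts.

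The text draws its genes from the sub-genome III members of the trios the study names, the 5 genes highest in control roots and in control shoots, the 5 called genes with the largest change in each contrast and direction whose groups did not overlap, with at most 2 unnamed ones per direction, and the IDs named by the study. A subset of these is described, and genes named for being at 0 in a group were chosen after their values were seen. The members and lists were chosen with earlier results of these data known.

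Whether replicate numbers pair the samples was checked on deviations from group means over all genes. Shoots and roots of the same number correlated at 0.300, 0.430 and 0.144 under salt and at 0.148, 0.116 and 0.354 in control plants, and at 0.157, 0.249 and 0.116 under salt and 0.0135, -0.0163 and 0.0510 in control plants without the chromosome 4 stretch. Shoots and roots of different numbers then correlated at -0.175 to 0.0301 under salt and -0.0554 to 0.0463 in control plants. Under salt every same-number value thus lay above every crossed one, whereas the control values overlapped. The main fit did not pair shoots and roots. Salt and control samples of the same number correlated at -0.186, 0.235 and 0.285 in roots and at -0.227, 0.186 and 0.0645 in shoots, so numbers were not taken to pair them. Alternatives were another pseudocount (0.1 or 1), quantile scaling, other filters, fits within each organ, a replicate block and each library left out. The omission of the chromosome 4 stretch and the block within each treatment were chosen after seeing the data.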

Additional observations from a re-analysis of the deposited data

Results flagged for a closer look

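The salt response differed between shoots and roots in the limma interaction test for many sub-genome III genes. There were 1115 in the direction of shoots and 1062 in the direction of roots. Of the genes picked for this text, 30 were among them and are listed below. Of the 68 tested IDs that the study names for a function, 27 were called in the direction of shoots and 18 in that of roots. Of all genes tested, 6.25 and 6.09% were. The calls of HAI1, ACC synthase 2, alternative oxidase 1A, trehalose-phosphatase/synthase 9 and alpha-amylase were lost under other settings or without 1 library. Values are the log2 change with salt in shoots minus that in roots. For genes with a group at 0 throughout, the value depends on the pseudocount and is no bound.

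The response was more positive in shoots for UDP-glycosyltransferase 74 F1 (Csa05g006470, 5.38), cytochrome P450 Csa15g029230 (5.26), SAG29 (Csa20g018520, 4.31), alternative oxidase 1D (Csa17g051700, 3.98), chloride channel B (Csa09g012970, 3.40), the lipid-transfer protein Csa09g097130 (3.38) and alternative oxidase 1B (Csa15g035960, 3.38). Smaller differences in this direction were found for glutathione S-transferase TAU 8 (Csa15g010630, 2.89), ACC synthase 2 (Csa17g001950, 2.29), raffinose synthase (Csa12g079610, 2.26), NRT1 (Csa17g016300, 1.96), NADPH oxidase D (Csa02g042790, 1.89), beta-amylase (Csa15g048800, 1.86), Csa15g034700 (1.59) and HAI1 (Csa17g010800, 1.41).

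The response was more negative in shoots for the MtN3 family gene Csa12g029240 (-6.36), the MYB trio member Csa12g063080 (-5.01), glycerol-3-phosphate acyltransferase 1 (Csa17g009910, -4.18), BOR5 (Csa09g079390, -4.10), the protein kinase-related gene Csa05g079690 (-4.07) and a lipase (Csa20g039550, -4.00). It was also more negative for the Rubisco small subunit genes Csa12g084200 (-3.78), Csa05g079910 (-3.46) and Csa12g084210 (-2.72), the cytochrome P450 family 78 gene Csa17g001660 (-3.70), nitrile specifier protein 1 (Csa15g021300, -3.55), ferritin 2 (Csa15g014720, -2.89), alternative oxidase 1A (Csa15g036960, -1.62), trehalose-phosphatase/synthase 9 (Csa17g030990, -1.02) and alpha-amylase (Csa15g030630, -1.01).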

How the results depend on the processing

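Counts of sub-genome III genes called stayed within 1.5 times the reported count under every alternative run. With a replicate block they were 1914 up and 1513 down for salt in shoots, 1443 up and 1399 down for salt in roots, 1141 and 1052 for the interaction, 2944 and 2710 for control shoots against control roots and 3174 and 2542 for salt shoots against salt roots. With shoots and roots paired within each treatment, the last 3 were 1166 and 1063, 2950 and 2717, and 3176 and 2541.

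With scaffold genes in the total, the share of CPM on sub-genome III was 37.1% in control shoots, 36.3% in salt roots and 36.3% in control roots. Without the 100 highest genes it was 36.7% in salt shoots, 36.7% in control shoots and 36.4% in control roots, and the differences were 0.301 percentage points between control shoots and control roots, 0.271 between salt shoots and salt roots and 0.0505 between salt roots and control roots. Taken as a median over genes, the log2 level of sub-genome III minus that of the others was 0 in salt shoots, 0.16 in control shoots, 0 in salt roots and 0 in control roots, with differences of -0.16 (salt minus control, shoots), 0 (salt minus control, roots) and 0.16 (control shoots minus control roots). Medians of whole numbers move in steps. Without the chromosome 4 stretch the mean difference was 0.0594 in control shoots and 0.0581 in control roots.

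The percent of sub-genome III genes at 0 or 1 was 9.16 in salt shoots, 10.2 in control shoots, 10.3 in salt roots and 10.4 in control roots, with differences of -0.0587 (salt minus control, roots), -1.17 (salt shoots minus salt roots) and -0.176 (control shoots minus control roots). Among genes at 5 CPM or more in 3 libraries, the percent at 0 was 3.03, 3.57, 4.17 and 4.55 in the same order, with differences of -0.542 (salt minus control, shoots), -0.379 (salt minus control, roots), -1.14 (salt shoots minus salt roots) and -0.975 (control shoots minus control roots). For control shoots minus control roots both differ in sign from the 0.0900 over all genes.

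The trio share over the median trio was 35.0% in salt shoots, 31.4% in control shoots, 34.4% in salt roots and 32.6% in control roots, with differences of 3.59 (salt minus control, shoots) and -1.19 (control shoots minus control roots). Over the wider list it was 36.2% in salt roots, with differences of 2.80 (salt minus control, shoots) and 1.38 (salt shoots minus salt roots). The trio shares without citrate synthase 3, and over trios of at least 10 CPM, were alternatives chosen after seeing the data.

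Of 145 pairs of a named gene and a contrast, 129 kept their call under every alternative. After quantile normalization the salt shoot minus salt root change of Csa17g026430 was -0.014, and the cause was not tested. Quantile normalization moved the median of all genes to -0.18 for control shoots against control roots and to -0.13 for salt shoots against salt roots. Leaving out the second salt root library gave 0.96 for this change. Leaving out 1 library ended the interaction call of 5 genes: alternative oxidase 1A (Csa15g036960, adjusted p in limma 0.0456, and 0.0647 to 0.108 without each of 9 libraries in turn), ACC synthase 2 (Csa17g001950, 0.0310, and 0.0577 to 0.0743 without each of 8), trehalose-phosphatase/synthase 9 (Csa17g030990, 0.0359, and 0.0545 to 0.0837 without each of 8), alpha-amylase (Csa15g030630, 0.0227, and 0.0501 to 0.0584 without each of 5) and HAI1 (Csa17g010800, 0.0208, and 0.0529 without the second salt root or 0.0550 without the first salt shoot library). The interaction calls of these 5 genes were also lost without moderation of the variances (HAI1, Csa17g010800, 0.0510; ACC synthase 2, Csa17g001950, 0.0736; alternative oxidase 1A, Csa15g036960, 0.104; trehalose-phosphatase/synthase 9, Csa17g030990, 0.0840; alpha-amylase, Csa15g030630, 0.0518). With a pseudocount of 1, HAI1 (Csa17g010800) was at 0.83 (adjusted p in limma 0.125) and alternative oxidase 1A (Csa15g036960) at -1.32 (0.0761). With a pseudocount of 0.1, ACC synthase 2 (Csa17g001950) had an adjusted p of 0.0823, and trehalose-phosphatase/synthase 9 (Csa17g030990) and alpha-amylase (Csa15g030630) were at -0.99 and -0.96, below the limit of size. The root call of alternative oxidase 1D (Csa17g051700) was lost without the first salt root library (adjusted p = 0.0608). The depth behind the values is unknown, and rounding to whole CPM limits every statement about genes near 0.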
